A study of Mus musculus with 2 samples.

Results

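The metalloproteases that cut the extracellular matrix and the cell surface, and the TIMPs that block them, were examined in cultured adipose-derived stromal cells of wild-type and Wisp1-knockout mice. The members were all genes with a single gene symbol on the array platform that starts with Mmp, Adam or Adamts followed by a digit, together with Timp1 to Timp4. The procollagen proteinases Adamts2, Adamts3 and Adamts14 and pseudogenes were left out. This gave 73 of 30142 named genes, made up of 22 MMP, 31 ADAM, 16 ADAMTS and 4 TIMP genes, each measured by a single transcript cluster. Mmp15 was not analysed here.

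The wild-type group was 1 sample of stromal cells grown from inguinal fat of C57BL/6J animals, and the Wisp1 knockout group was 1 sample of the same cells, strain and age range, 6 to 10 weeks. Both were grown in DMEM with 15% fetal bovine serum. In the knockout, exons 1 to 5 of Wisp1 on chromosome 15 were flanked by flox sites and removed in all tissues by mating with a mouse line that the labels call Cre-neo. Whether the cells of a sample came from 1 mouse or from several pooled mice is not given in the sources used here. Values are log2 expression after RMA, the standard summary of Affymetrix probes, and every difference is knockout minus wild type. With 1 array per genotype there is no replicate spread, no test and no p-value, so each difference compares these arrays and not the genotypes.

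MMPs are secreted or membrane-anchored zinc proteases that cleave collagens, proteoglycans and other matrix proteins, and they are made as inactive proenzymes. ADAMs are membrane proteins, many of which shed growth factors, cytokines and receptors from the cell surface, while ADAMTS enzymes are secreted and cut proteoglycans such as aggrecan and versican. TIMPs are small secreted proteins that bind the active site of these enzymes. In fat tissue and in cartilage these proteases are known for remodelling the matrix around growing cells.

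Wisp1 (now Ccn4), the deleted gene, was measured at 7.79 on the wild-type array and 5.40 on the knockout array, a 5.25-fold lower value that goes with the labels. Of 10 measured markers of stromal cells 9 lay at or above the level filter used here, which was the median of all named genes over both arrays, 4.65. The marker below it was Nt5e, at 3.27 and 3.28. Wisp1 itself, at 5.40 on the knockout array, lay above this filter though its exons 1 to 5 were removed. Passing the filter therefore does not by itself show that a gene was expressed. Of the marker lists for other cell types, lymphocytes had 0 of 7 genes at or above the filter, neutrophils 1 of 8, endothelium 2 of 8, epithelium 2 of 8, macrophages 5 of 12 and skeletal muscle 7 of 8. Mature adipocytes had 3 of 7, pericytes and smooth muscle 5 of 8, chondrocytes 5 of 8, osteoblasts 2 of 7 and mesothelium 2 of 6. In a bulk sample, fewer cells of a type and less RNA per cell cannot be told apart.

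Of the 73 members 32 passed the level filter and 41 were dim. None of the 32 differed by 2-fold, against 0.0663% of the 15072 genes at or above that filter that were higher and 0.0995% that were lower by as much. At a 1.5-fold difference, 2 of the 32 were higher (Mmp11 and Adamts6) and 1 was lower (Mmp3), where the background was 0.717% higher and 0.464% lower. At 1.3-fold the members were again 2 higher and 1 lower, against 2.42% and 1.69% of those genes. The other 29 lay inside the central 95% of differences of all genes at or above the filter, which ran from -0.33 to 0.37. The next in size, well short of 1.5-fold, were Mmp2 and Adamts15, both 0.27 higher. Over all 73 members the median difference was -0.03, with 27 higher, 39 lower and 7 equal, beside a median of 0 over all named genes, of which 47% were higher and 47.4% lower.

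**Figure D1:**
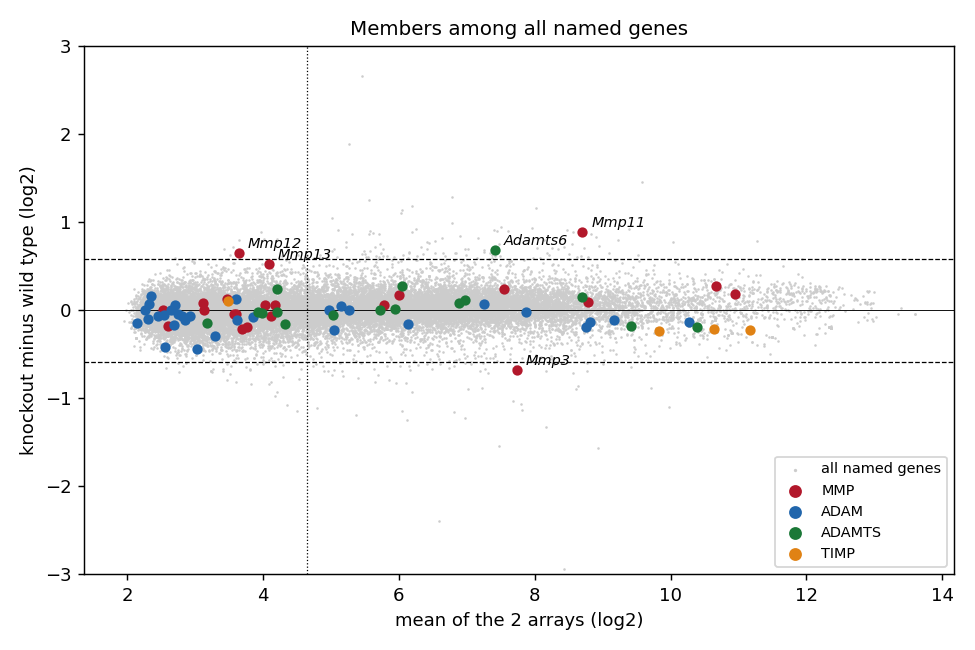
Difference of knockout and wild type (log2, vertical axis) against the mean of both arrays (log2, horizontal axis) for all 30142 named genes in grey and the 73 members in colour by family; dashed lines mark 1.5-fold and the dotted line the level filter of 4.65. Mmp11 and Adamts6 lie above the upper line and Mmp3 below the lower line, while Mmp12 and Mmp13 stand out among the dim genes to the left of the filter.

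The families leaned in different directions. Among members that passed the level filter, 7 of 8 MMP genes were higher and the other was lower (median 0.18). Of 11 ADAM genes 2 were higher, 7 lower and 2 equal, with a median of -0.11. Of 10 ADAMTS genes 6 were higher, 3 lower and 1 equal, with a median of 0.05. All 3 TIMP genes that passed were lower, with a median of -0.23. Over all genes at or above the filter 56.9% were higher and 39.9% lower, and their median was 0.03. The family counts are descriptions of these arrays, and no test of a difference between families was made.

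**Figure D2:**
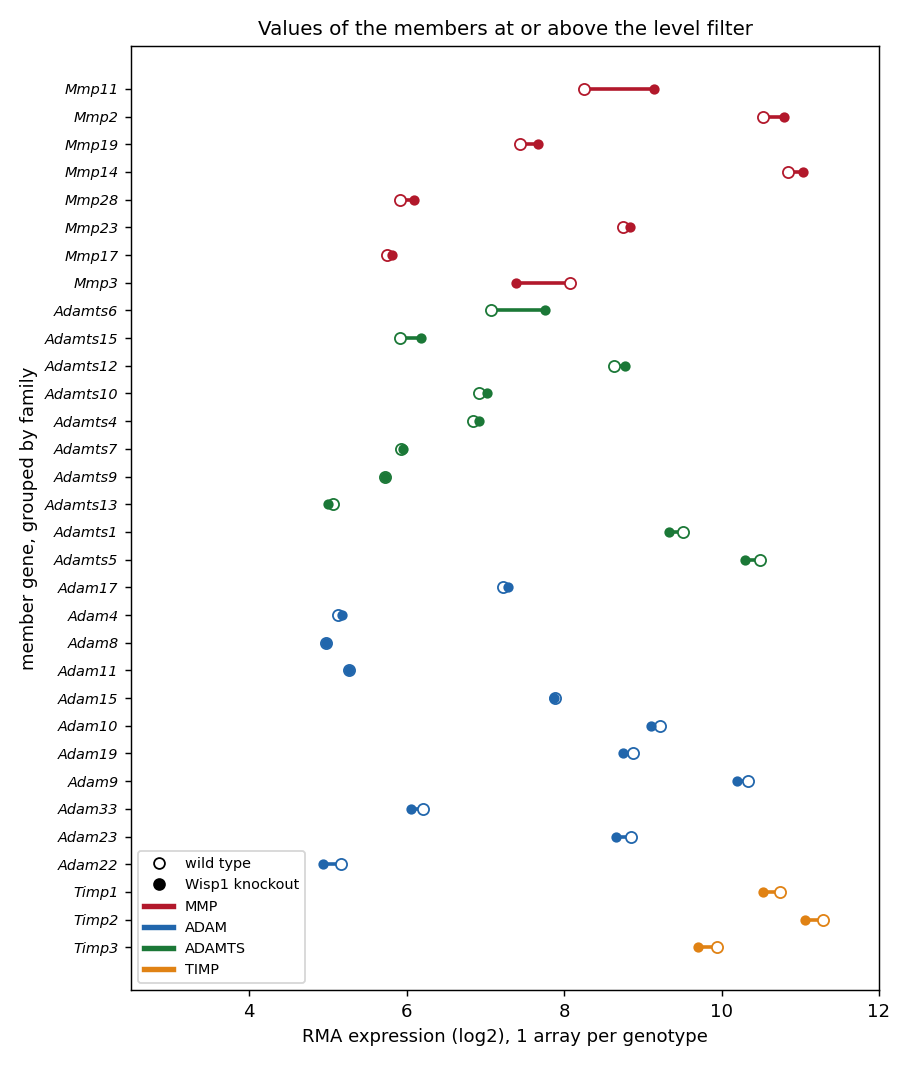
RMA expression (log2, horizontal axis) of the 32 members at or above the level filter on the wild-type array (open circles) and the Wisp1-knockout array (filled circles), 1 array per genotype, joined by a line and coloured by family. Filled circles lie to the right in 7 of 8 MMP genes and to the left in all 3 TIMP genes, and the longest lines belong to Mmp11, Mmp3 and Adamts6.

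Mmp11, or stromelysin-3, had the highest difference of the members. It is a secreted MMP known from stromal fibroblasts around tumours and from remodelling tissue, and unlike most MMPs it is activated inside the cell by furin-type convertases. Mmp11 was at 8.26 in wild-type and 9.14 in knockout cells, a difference of 0.88, or 1.84-fold higher. Of the 15072 genes at or above the filter, 21 had a higher difference.

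Mmp3, or stromelysin-1, was the lowest member. It cleaves proteoglycans, fibronectin and several collagens outside the fibril and activates other MMP proenzymes. Mmp3 was at 8.08 in wild-type and 7.39 in knockout cells, a difference of -0.68, or 1.60-fold lower. Only 37 genes at or above the filter had a lower difference. Despite their shared name, the stromelysin genes thus stood at opposite ends, and the third of them, Mmp10 (stromelysin-2), was dim, at 3.80 and 3.58.

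Mmp3 and Mmp10 belong to a run of MMP genes that lie side by side on chromosome 9. In the RefSeq gene table of GRCm38.p6, 10 members follow each other there with no other protein-coding gene between them: Mmp13, Mmp12, Mmp1b, Mmp3, Mmp1a, Mmp10, Mmp8, Mmp27, Mmp20 and Mmp7. Only Mmp3 passed the level filter. Its dim neighbours differed in both directions. Mmp12, the macrophage elastase, was at 3.32 in wild-type and 3.97 in knockout cells, 0.65 or 1.57-fold higher. Mmp13, the main collagenase of rodents and a product of hypertrophic chondrocytes and osteoblasts, was at 3.82 and 4.35, 0.52 or 1.44-fold higher.

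These are large differences for dim genes. Of the 15070 named genes below the filter, 6 had a higher difference than Mmp12 and 24 a higher difference than Mmp13, and 0.0863% were 1.5-fold higher or more (0.239% lower by as much). Both nevertheless stayed below the filter on the knockout array too. The other members of the run differed less. Mmp10 and Mmp1a, an interstitial collagenase gene of the mouse, differed by -0.22 and -0.18. Mmp27 was 0.12 higher and Mmp7 (matrilysin) 0.08 higher, while Mmp20, the enamel protease, differed by -0.04. The collagenase genes Mmp1b and Mmp8 held the same value on both arrays, 2.53 and 3.14.

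**Figure D3:**
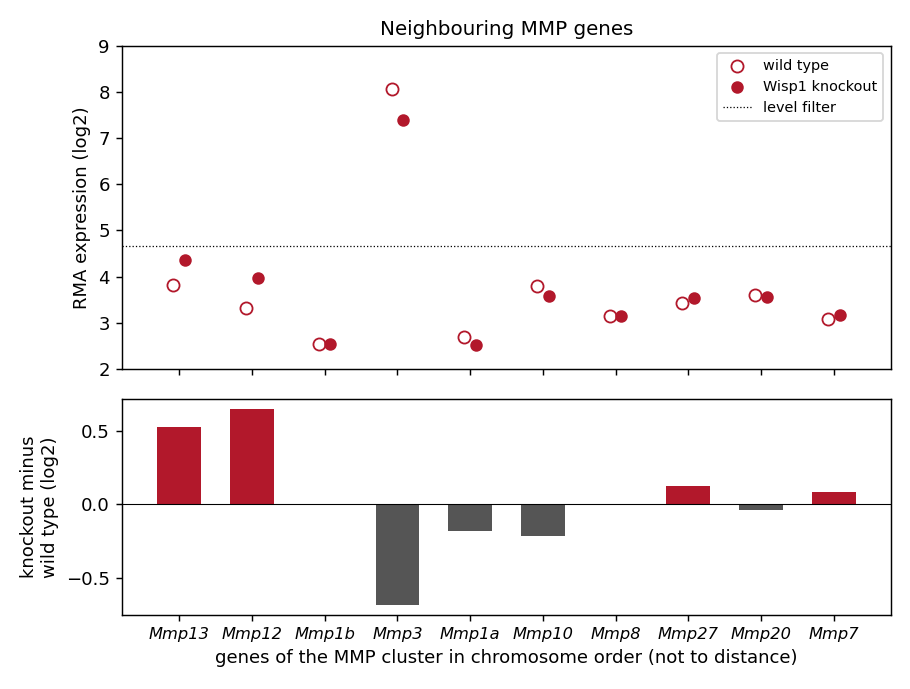
The 10 neighbouring MMP genes of chromosome 9 in gene order along the horizontal axis: the upper panel gives RMA expression (log2) on the wild-type array (open) and the knockout array (filled) with the level filter as a dotted line, and the lower panel the difference (log2, knockout minus wild type). Mmp3 alone lies above the filter and is lower in the knockout (-0.68), while Mmp13 (0.52) and Mmp12 (0.65) are higher.

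Some markers of macrophages were higher, as Mmp12 was. Of 12 macrophage markers 7 were higher, 3 lower and 2 equal. Over all named genes 47% were higher and 47.4% lower, and at or above the filter 56.9% and 39.9%. The summed linear signal of the 12 markers was 305 in wild-type and 471 in knockout cells, a ratio of 1.54. Lyz2 (6.14 to 7.43), Fcer1g (5.13 to 6.02), Cd68 (5.77 to 6.35) and Tyrobp (4.57 to 5.09) were higher, while Cd14 (4.90 to 4.72) and the dim gene Fcgr1 (3.48 to 3.31) were lower. Without Lyz2 the summed signal of the other 11 markers was 234 and 298, a ratio of 1.27. The defining receptor genes Csf1r (4.61 and 4.62) and Adgre1 (3.33 and 3.25) and the leukocyte gene Ptprc (2.86 on both arrays) were dim. So were Itgam (3.69 and 3.78), Mrc1 (3.39 and 3.50) and Aif1 (3.90 on both arrays). Adam8, a protease of myeloid cells, was at 4.97 on both arrays, and Mmp9, the gelatinase of neutrophils and macrophages, was dim at 4.00 and 4.06. The part of such cells in the Mmp12 difference was not tested.

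Start-site sequences are shown for Mmp11 and Mmp3, at the ends of the range, and for the dim genes Mmp10, Mmp12 and Mmp13. Those of the TIMP genes that were lower together are shown as well. They were printed because 7 of the 10 chromosome 9 genes hold promoter letters that were found in 3 of the 34 other members with a sequence. RefSeq windows of 300 bases, 250 before the annotated start and 50 after it, were found for 44 of the 73 members (49 windows, build GRCm38.p6). They were searched for the AP-1 site TGAGTCA and the GC box GGGCGG on both strands and for the TATA box TATAAA on the gene's strand. None of these motifs contains another. Printed below are the 100 bases just before the annotated start, 5′ to 3′ on the gene's strand, with matches in capitals.

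Mmp3 (chr9:7445722-7445821, plus strand): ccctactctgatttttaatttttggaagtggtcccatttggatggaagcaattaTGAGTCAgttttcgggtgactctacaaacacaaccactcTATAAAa

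Mmp10 (chr9:7502242-7502341, plus strand): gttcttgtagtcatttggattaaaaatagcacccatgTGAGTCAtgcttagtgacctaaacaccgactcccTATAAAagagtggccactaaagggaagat

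Mmp13 (chr9:7272414-7272513, plus strand): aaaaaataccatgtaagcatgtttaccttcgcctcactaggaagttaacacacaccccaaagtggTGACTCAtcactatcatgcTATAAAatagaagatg

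Mmp12 (chr9:7347274-7347373, plus strand, the downstream of its 2 annotated starts): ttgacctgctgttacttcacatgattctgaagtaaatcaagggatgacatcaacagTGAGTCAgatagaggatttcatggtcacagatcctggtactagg

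Mmp11 (chr10:75932503-75932602, minus strand): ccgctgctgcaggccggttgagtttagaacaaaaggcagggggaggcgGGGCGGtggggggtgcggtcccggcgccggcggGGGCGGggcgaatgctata

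Timp1 (chrX:20870066-20870165, plus strand): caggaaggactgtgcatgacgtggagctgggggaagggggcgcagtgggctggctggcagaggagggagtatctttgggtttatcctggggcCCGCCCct

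Timp2 (chr11:118355412-118355511, minus strand): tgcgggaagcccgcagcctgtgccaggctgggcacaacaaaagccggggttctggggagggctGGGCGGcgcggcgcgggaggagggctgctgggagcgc

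Timp3 (chr10:86300312-86300411, plus strand): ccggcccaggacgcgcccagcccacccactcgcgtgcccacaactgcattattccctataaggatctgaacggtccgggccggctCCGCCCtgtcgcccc

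Of the 10 chromosome 9 genes 7 held the AP-1 letters and 8 the TATA letters in a window, 7 held both, and 0 held a GC box. Of the 34 other members with a window 3 held the AP-1 letters, 3 the TATA letters and 19 a GC box. Over all 32851 RefSeq windows, 5.20% held the AP-1 letters, 8.32% the TATA letters and 35.7% a GC box. These are shares of single windows, while the member counts are by gene over all windows of that gene. The 10 chromosome 9 genes had 12 windows and the 34 others 37. The AP-1 letters began at position -46 from the start of Mmp3, -63 of Mmp10, -35 of Mmp13 and -44 of Mmp12. For Mmp12 the window was chosen for print because it held these letters. The window of its upstream start held none of the motifs searched. The TATA letters began at position -7 from the start of Mmp3, -29 of Mmp10 and -16 of Mmp13. In Mmp12 they began at position 4, after the annotated start and outside the stretch printed. Mmp11 held no AP-1 letters in its window, and Adamts6 had no window. Whether the letters bear on the differences was not tested. A match of letters is a description of the window and not a binding site.

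The genes of AP-1 subunits, the transcription factors that bind those letters, did not share a direction. All 9 measured passed the level filter, with 5 higher and 4 lower, 0 past 1.5-fold and a median of 0.10. Fosl2 (8.85 to 9.23, 0.38) and Jun (7.18 to 7.52, 0.34) were the highest, and Fosl1 (6.69 to 6.39, -0.30) was the lowest. Of cytokines known to regulate stromelysins or collagenases, in either direction, 6 of 10 measured passed the filter, with 3 higher and 3 lower. Their largest differences were in Tgfb2 (7.68 to 7.41, -0.27) and Tgfb1 (8.23 to 8.40, 0.17), and Il1b (3.10 and 2.90) and Tnf (3.78 and 3.75) were dim.

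Among the remaining MMPs, the gelatinase gene Mmp2 and its activator Mmp14 were slightly higher. MMP2 cleaves denatured collagen and basement membrane collagen, and MMP14 is the membrane-bound collagenase of fibroblasts, which activates pro-MMP2 on the cell surface together with TIMP2. Mmp2 was at 10.53 in wild-type and 10.80 in knockout cells (0.27), and Mmp14 at 10.85 and 11.04 (0.19). In these arrays 886 genes at or above the filter had a higher difference than Mmp2 and 1994 a higher one than Mmp14, so differences of that size were common.

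Mmp19, a secreted MMP found in many tissues, was at 7.43 and 7.67 (0.23). Mmp28, also called epilysin, was at 5.91 and 6.09 (0.18), and Mmp23, a cysteine array MMP with no haemopexin domain, at 8.74 and 8.84 (0.10). The membrane-type gene Mmp17, whose product carries a lipid anchor, was at 5.75 and 5.81 (0.06). Its relatives Mmp16 (3.87 and 3.67), Mmp24 (4.15 and 4.08) and Mmp25 (4.16 and 4.21) were dim, as was Mmp21 (3.62 and 3.58), known from left-right patterning of the embryo.

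The 3 TIMP genes at or above the filter lay close together, all slightly lower in the knockout array. TIMP1 inhibits most soluble MMPs, TIMP2 inhibits MMPs and also takes part in pro-MMP2 activation, and TIMP3 binds to the matrix and inhibits ADAM17 and aggrecanases as well. Timp1 went from 10.74 in wild type to 10.53 in the knockout (-0.22). Timp2 went from 11.29 to 11.06 (-0.23) and Timp3 from 9.95 to 9.71 (-0.24). These differences span 1.16-fold to 1.18-fold, and 950, 853 and 790 genes at or above the filter had a lower difference than Timp1, Timp2 and Timp3. Timp4, which is known from heart and fat tissue, was dim and slightly higher, at 3.44 and 3.54 (0.10). None of the TIMP genes came near 1.5-fold. Markers of pericytes and smooth muscle were also lower in part, with 5 of 8 lower and 3 higher. Over all named genes 47.4% were lower and 47% higher, and at or above the filter 39.9% and 56.9%. The summed linear signal of these 8 markers was 8112 in wild-type and 7228 in knockout cells, a ratio of 0.891. Most of that signal came from 1 gene, Acta2 (12.83 in wild-type and 12.70 in knockout cells). Mcam differed by -0.69, Myh11 by -0.51, Cspg4 by -0.36, Acta2 by -0.13 and Des by 0.41. The dim markers Abcc9 and Rgs5 differed by 0.22 and 0.08, and the dim marker Kcnj8 by -0.16. The part of such cells in the TIMP differences was not tested.

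A mixed list of other inhibitors and clearance receptors, which also held an MMP inducer and a cathepsin inhibitor, had no shared direction. Of 11 measured genes 7 passed the filter, with 4 higher, 3 lower, 0 past 1.5-fold and a median of 0.0031, which turned to -0.026 with quantile normalization and -0.029 with loess centring. Reck, a membrane-anchored MMP inhibitor, was at 7.95 and 7.78 (-0.16), and Cst3, the cathepsin inhibitor cystatin C, at 10.56 and 10.34 (-0.22). Bsg, the MMP inducer basigin, was at 11.18 and 11.44 (0.26), and Lrp1, the receptor that takes up protease complexes, at 10.70 and 10.82 (0.12). The other genes that passed were Sfrp1 (0.10), Tfpi2 (0.0031) and Spock2 (-0.09).

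Adamts6 was the only ADAMTS gene past 1.5-fold. ADAMTS6 is known from heart development and from fibrillin microfibrils, where its relative ADAMTS10 also acts. Adamts6 was at 7.07 in wild-type and 7.75 in knockout cells, a difference of 0.68, or 1.60-fold higher, and 60 genes at or above the filter had a higher difference. Adamts10 was at 6.92 and 7.03, a difference of 0.11.

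The proteoglycan-cutting ADAMTS genes were split. Adamts5, the main aggrecanase of mouse cartilage, was at 10.49 and 10.30 (-0.19), and Adamts1, which cuts versican and aggrecan, at 9.51 and 9.33 (-0.18). Those genes are neighbours on chromosome 16 with no other protein-coding gene between them. Adamts4, the other classical aggrecanase gene, was at 6.84 and 6.92 (0.08), and Adamts9 held 5.73 on both arrays. Adamts15, a versican-cutting enzyme gene, was at 5.91 and 6.18 (0.27), while its chromosome 9 neighbour Adamts8 was dim, at 4.40 and 4.25 (-0.16). Adamts20 was dim too, at 3.95 and 3.92.

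Of the enzymes that cut the cartilage protein COMP, Adamts12 was at 8.63 and 8.77 (0.15) and Adamts7 at 5.93 and 5.95 (0.02). The sign of the Adamts7 difference turned under quantile normalization (-0.017) and under loess centring (-0.0093). Adamts13, the protease of von Willebrand factor, was at 5.06 and 5.00 (-0.06). Adamts16, Adamts17, Adamts18 and Adamts19 were all dim, between 3.10 and 4.33, and Adamts16 had the largest difference of them, 0.24.

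ADAM genes with a known sheddase or other protease activity were mostly slightly lower. ADAM17 releases TNF and EGF receptor ligands, and ADAM10 cuts Notch, cadherins and other surface proteins. Adam17 was at 7.22 in wild-type and 7.28 in knockout cells (0.07), and Adam10 at 9.22 and 9.11 (-0.11). Adam9, a widely expressed sheddase gene, was at 10.34 and 10.20 (-0.14). Adam19, linked to neuregulin processing, was at 8.88 and 8.75 (-0.13), and Adam33, known from airway fibroblasts, at 6.21 and 6.06 (-0.16). Adam15 was at 7.89 and 7.87 (-0.02), and Adam28 was dim, at 2.95 and 2.89. The differences of these ADAM genes came to 1.12-fold at most.

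Adam11, Adam22 and Adam23 encode ADAMs that lack protease activity and are known as neural adhesion proteins and ligands of LGI proteins. Adam23 was at 8.85 and 8.66 (-0.19) and Adam22 at 5.17 and 4.94 (-0.23), the lowest ADAM difference at or above the filter. Adam11 held 5.27 on both arrays. The other 20 ADAM genes, many of them known from testis and sperm, were dim in 19 cases, with values from 2.08 to 3.89. Of those 19 genes 13 were lower, 4 higher and 2 equal, down to -0.44 for Adam30 and -0.42 for Adam26b. Dim genes leaned lower in general, with 54.8% of all named genes below the filter lower and 37% higher. The exception in level was Adam4, at 5.13 and 5.18 (0.05). Adam18, Adam3, Adam5 and Adam32, all dim, lie next to Adam9 on chromosome 8.

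A total of 7 members (9.59%) held identical values in the knockout and the wild type, beside 5.65% of all named genes. They were Adam8, Adam11, Adam18, Adam26a, Adamts9, Mmp1b and Mmp8. How the equal values arose was not tested.

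Partners that steer ADAM10 and ADAM17, such as iRhoms and tetraspanins, had a median of -0.04 over the 6 of 9 that passed the filter. Of these 1 was higher and 5 lower, with 0 past 1.5-fold. The background for this and the other related lists was 56.9% higher and 39.9% lower at or above the filter. Past 1.5-fold it was 0.717% higher and 0.464% lower. Tspan5, a tetraspanin of ADAM10, had the largest difference, from 7.83 to 7.54 (-0.30), and Tspan14 was the higher one, from 6.17 to 6.33 (0.15). The ADAM17 cofactor genes Rhbdf1, Rhbdf2 and Frmd8 differed by -0.05, -0.01 and -0.08.

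Ligands and receptors shed by ADAMs had 24 of 27 measured genes at or above the filter, with 9 higher and 15 lower and a median of -0.05. Past 1.5-fold were Ereg, the growth factor epiregulin (6.74 to 5.50, -1.24), and Nrg1, neuregulin (5.84 to 6.43, 0.59). Dlk1, the preadipocyte factor that ADAM17 sheds, went from 7.03 to 6.45 (-0.58) and lay just inside that limit.

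The lists of proenzyme activators and related genes were split as well. Of 6 proprotein convertase genes at or above the filter 3 were higher, 2 lower and 1 equal, with a median of 0.02 that turned to -0.02 with either quantile normalization or loess centring. Pcsk5, a furin relative that is secreted and binds the cell surface, went from 5.97 to 6.68 (0.71) and alone passed 1.5-fold, while Furin itself was at 7.33 and 7.39 (0.06). Of 7 genes of the plasminogen system list 3 were higher, 3 lower and 1 equal, with 0 past 1.5-fold and a median of 0. The list is mixed, as it also holds the plasmin inhibitor gene Serpinf2 (equal), Masp1 and F2r. The higher genes were Plat (0.21), Plgrkt (0.20) and Masp1 (0.06). Plau, which encodes the plasminogen activator urokinase, went from 9.02 to 8.62 (-0.39), its receptor gene Plaur from 7.28 to 6.99 (-0.29), and the thrombin receptor gene F2r from 10.26 to 9.90 (-0.36).

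Matrix proteins that these enzymes cut were mostly higher, with 14 of 17 genes at or above the filter higher, 2 lower and 1 equal. Their median was 0.25, beside 0.03 over all genes at or above the filter, of which 56.9% were higher and 39.9% lower. Past 1.5-fold were Vcan, the versican gene (8.82 to 9.62, 0.80), and Lum, the lumican gene (4.79 to 5.39, 0.60). The collagen genes Col1a1 (0.50) and Col1a2 (0.52) and the fibronectin gene Fn1 (0.25) were higher too, while Acan, the aggrecan gene, was dim at 4.19 and 4.31. These matrix genes were already known to be higher in these arrays when the list was made, so their count is not independent evidence.

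Among other matrix proteases, 10 of 13 genes at or above the filter were higher and 3 lower (median 0.09). Of all genes at or above the filter 56.9% were higher and 39.9% lower, with 0.717% and 0.464% past 1.5-fold. Of the 13, Tll1, a tolloid protease, alone passed 1.5-fold (5.97 to 4.78, -1.19). Next in size were Prss23, a serine protease gene (8.18 to 7.76, -0.42), and Lgmn, the lysosomal legumain gene (9.43 to 9.84, 0.41). Of the dim genes of that list Ctss alone passed 1.5-fold, from 4.20 to 4.82 (0.63, 1.54-fold higher). ADAMTS-like genes, which encode secreted relatives with no protease domain, had 1 higher and 5 lower of 6 at or above the filter, with a median of -0.10. Adamtsl3 went from 7.61 to 7.18 (-0.43) and Adamtsl4, a fibrillin-binding member, from 8.26 to 7.87 (-0.40).

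**Figure D4:**
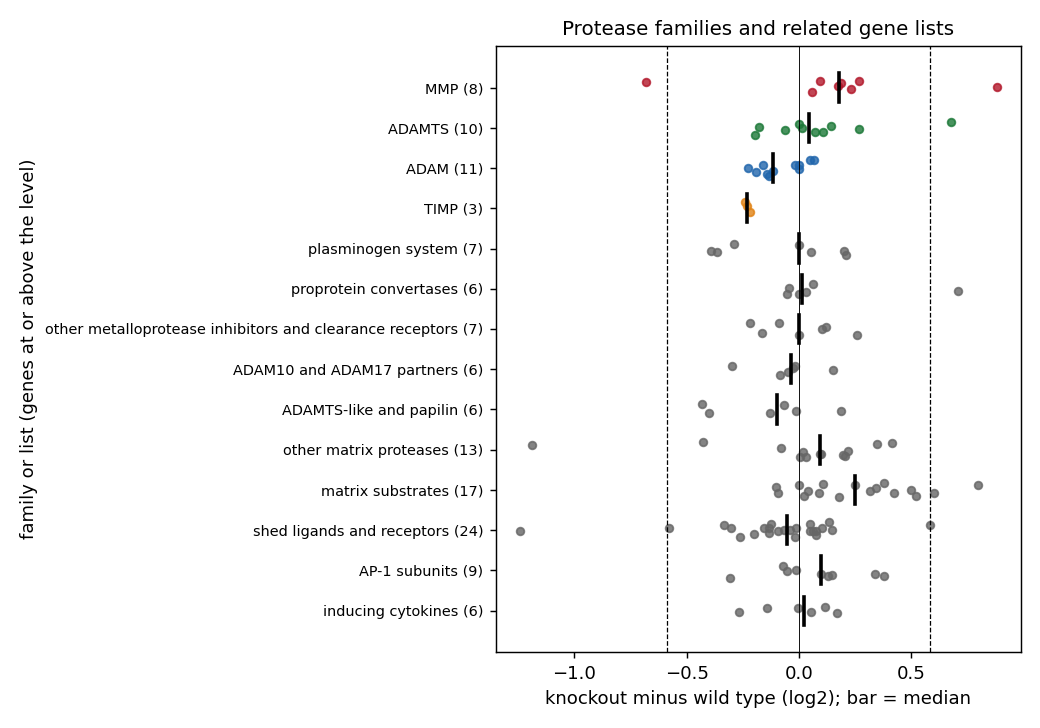
Differences (log2, knockout minus wild type, horizontal axis) of single genes at or above the level filter for the 4 protease and inhibitor families in colour and the 10 related gene lists in grey, with the number of genes in brackets, the median as a bar and 1.5-fold as dashed lines. The 3 TIMP genes sit together at -0.24 to -0.22, the MMP median is at 0.18 and the matrix substrates have the highest list median, 0.25.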

How the data were processed

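RNA of 1 wild-type and 1 Wisp1-knockout sample was measured on 1 Affymetrix array each. Per the submitters' processing notes the authors used RMA and Partek, and no version is given in the sources used here. The deposited values are on a log2 scale, as judged from their range (1.88 to 13.62 on the wild-type array, 1.74 to 13.65 on the other). RMA makes arrays alike in distribution and compresses differences of dim genes. The number of arrays limits the precision.

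Of 65956 transcript clusters 30604 list 1 gene symbol in the platform annotation, which can be old, 2146 list several and 33206 none. Names were updated by Entrez ID through the RefSeq table of GRCm38.p6 (22818 clusters matched), and the row with the highest mean was kept per gene. Named were all members at or above the level filter, dim members where they differed or to complete a class, and the largest differences of each related list. The dim members and the marker and list genes named beyond that were chosen after their values were seen. The members, lists, folds and tests were chosen with earlier results of these data known. The catalytic motif count that was planned was not run, because no protein sequences were used here. The counting code was run on simulated data with 2-fold changes and less noise than the spread of differences in these arrays. That run checks the code and not the 1.5-fold counts. Alternatives were other normalizations (centring, quantile, loess with span 0.3), filters, folds and row choices. Tools were Python 3.11.15 with matplotlib 3.10.9, statsmodels 0.14.6, pandas 2.3.3 and numpy 2.4.6.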

Additional observations from a re-analysis of the deposited data

How the results depend on the processing

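No paired analysis was possible because each group has 1 array. The counts of members past 1.5-fold (2 higher, 1 lower) and past 2-fold (0) were the same under centring, quantile normalization, loess centring, the mean over rows and the filter on the brighter array. The count at 1.3-fold was also 2 higher and 1 lower. Without a filter Mmp12 made it 3 higher, and with clusters of several symbols kept Adam12 did. All 365 recomputed member differences and all 50 list medians moved by less than 0.1, by at most 0.058 for a member. That tolerance was set without replicates and does not measure a replicate spread. Part of these outcomes was fixed beforehand. Averaging over rows left every member as it was, because each had 1 transcript cluster. Keeping clusters of several symbols moved no member, and centring moved every difference by the same 0.014. The median of all members lay between -0.03 and 0. The medians of the 4 families at or above the filter kept their sign, that of ADAMTS at 0.0067 under quantile normalization, while the median of all 16 ADAMTS genes (-0.012) was 0.0015 under centring. Near 0, the medians of 3 lists changed sign under quantile normalization and under loess centring. These were convertases (0.02 to -0.018 and -0.015), other inhibitors (0.0031 to -0.026 and -0.029) and cytokines (0.03 to -0.0091 and -0.0063). Dim genes are limited by signal over background, which the deposited values do not give.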

Other observations

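Members whose transcript cluster lists a further gene symbol stood outside the choice of members and were looked at after the values were seen. Adam12, which encodes a metalloprotease of activated fibroblasts and of fat and muscle precursors, shares its cluster with the symbol 5830403F22Rik. That cluster was at 8.12 in wild-type and 8.73 in knockout cells, a difference of 0.61, or 1.52-fold higher, against 0.717% of named genes at or above the filter that were 1.5-fold higher. The cluster of Adam1a, shared with Mapkapk5, was at 6.34 and 6.31 (-0.03), and that of Adam34, shared with Gm5347, was dim at 2.58 and 2.54.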
